A study of Mus musculus with 15 samples.

Results

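In MC3T3-E1 cells, a mouse calvarial pre-osteoblast line, 1007 genomic regions with a peak of FLAG-tagged Sp7 in both replicates overlapped a region found in both replicates of FLAG-tagged Dlx5, and no region found in both replicates of the mutant labelled Sp7mut. Of the 1007, 1000 held a peak of Dlx5 list 1 and 1000 a peak of list 2 themselves. They were chosen from 5018 Sp7 regions of the cell line, and from 31637 regions of all tagged groups merged. Peaks of a group that shared at least 1 bp were merged, and a merged region was kept if both lists of the group had a peak in it and no FLAG control peak of that cell system overlapped it. The 1007 regions were those Sp7 regions that met a Dlx5 region and met no Sp7mut region, no Sp1 region and no Sp7 region of primary osteoblasts. Peak overlap chose them, so the overlaps that follow from that choice are given as a description and support nothing.

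The cell line groups carried tagged Sp7, Dlx5, Sp1 or Sp7mut, with 2 libraries each, and a GFP library was the FLAG control with 1. All were MC3T3-E1 cells at passages 5 to 10, and had spent 1 week in an osteogenic medium that held ascorbic acid phosphate (50 ug/ml), beta-glycerophosphate (10 mM) and the bone-inducing factor BMP-2 (10 ng/ml). The primary osteoblasts came from calvaria of C57BL/6 mice at postnatal day 1, either with the genotype Sp7-BioFL/BioFL (2 libraries) or wild-type as the FLAG control (1 library). The labels give neither the mutation in Sp7mut nor the way the cell line factors were expressed, and they do not say whether replicates were separate cultures or litters.

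Sp7, also called Osterix, is a zinc finger factor of the Sp family without which osteoblasts do not form. Most Sp factors, Sp1 among them, bind GC-rich boxes through their zinc fingers, often at promoters. Dlx5 is a homeodomain factor of the developing skeleton, and homeodomains bind short AT-rich sites. The series' title describes Sp7 as a Dlx co-factor, and sites of Sp7 and Dlx5 that the mutant does not share bear on where the altered protein and Sp7 differ in the sites they were found at.

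Facts of the whole series set the scale of these regions. The lists hold positions only, with no score or read count, so the depth behind a peak is unknown. Sp7 had 18624 and 6063 peaks in its lists 1 and 2, Dlx5 30234 and 39749, Sp7mut 10519 and 14830, Sp1 10549 and 28210, and primary Sp7 2666 and 3212, against 269 in the GFP and 183 in the wild-type control. The lists of Sp7 and of Sp1 thus differed most in length within a factor. Sp7 and Dlx5 peaks were called against 1 cell line input, and Sp7mut and Sp1 peaks against another, so input and factor cannot be told apart in any comparison between these pairs.

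Of the 5018 cell line Sp7 regions, 4236 (84.4%) met a Dlx5 region and 1526 (30.4%) met no Sp7mut region. Both held for 1206. Of these, 131 met an Sp1 region and 69 a primary Sp7 region, with 1 in both sets, which left the 1007. They made up 20.1% of all Sp7 regions and 23.8% of those with Dlx5 (95% Clopper-Pearson interval 22.5 to 25.1, which covers counting error only, here and below). The lists in use moved this share far more than counting error: it was 12.5% (528 regions) without Sp7mut replicate 1, and 11.8% (594) or 48.9% (6036) without replicate 1 or 2 of every group. Seen from Dlx5, 1012 of its 23682 regions (4.27%) met one of the 1007. As a comparison class matched on the other criteria, 1344 Sp7 regions met a Dlx5 and an Sp7mut region and again neither an Sp1 nor a primary Sp7 region. They are called mutant-shared here, and the 1007 mutant-lacking. The second name means only that no Sp7mut region found in both replicates was met. It does not mean a lack of mutant peaks, since 580 of the 1007 (57.6%) held a peak of at least 1 mutant list. Over all Sp7 regions that share was 87.7%. A further 237 Sp7 regions met no region of any other factor.

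The working description of the 1007 regions as absent in the mutant did not hold in the single lists. A peak of Sp7mut list 1 lay in 108 of them (10.7%, interval 8.88 to 12.8), where the share over all Sp7 regions was 73.8%. For Sp7mut list 2 the count was 484 (48.1%, interval 44.9 to 51.2), against 83.6% over all Sp7 regions. List 1 alone met 96 regions, and list 2 alone met 472. Together, 568 regions (56.4%) had a peak in exactly 1 mutant list, against 17.9% of all Sp7 regions. In 12 regions both mutant lists had a peak, but in all 12 the peaks of the lists fell in separate merged regions, and so did not count as shared. This left 427 regions (42.4%, interval 39.3 to 45.5) with no peak of either mutant list, against 12.3% of all Sp7 regions. The rule used these lists, so the differences from the background were fixed in their direction. The peak in 1 list only was in the longer list in 472 of the 568 regions. Over all Sp7 regions this was so in 697 of 900, so the lean to the longer list was not particular to the 1007. With an overlap of at least 50% of both intervals required, 687 regions were mutant-lacking and 41.2% of them had a peak in exactly 1 mutant list.

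**Figure D1:**
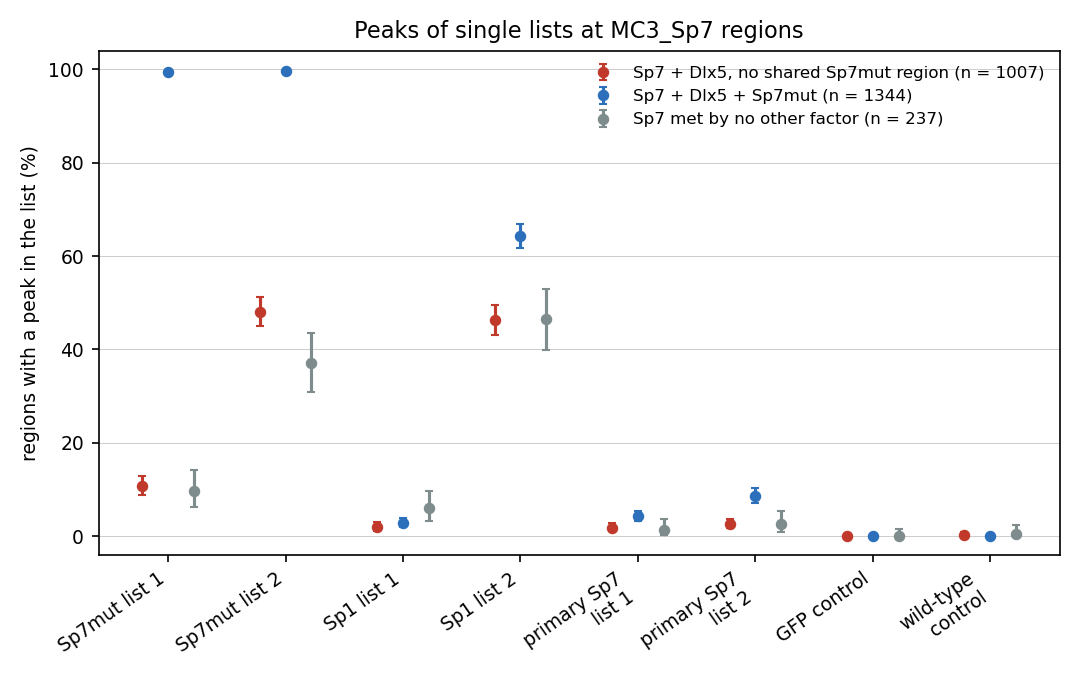
Percentage of regions with a peak in each single list (vertical axis) for the 1007 mutant-lacking, 1344 mutant-shared and 237 Sp7-only regions, with 95% Clopper-Pearson intervals as bars. In the mutant-lacking regions, Sp7mut list 2 reached 48.1% and Sp1 list 2 reached 46.3%, while the other lists on the axis stayed at or below 10.7%.

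The mutant peaks that fell in these regions stood later in their lists than those of mutant-shared regions, a difference that follows from the rule, since it takes out replicated mutant peaks. Row order is used because earlier rows were found again more often in the other replicate, although what sets the order is not given in the sources used here. List 1 of Sp7mut overlapped 96.2% of the peaks that opened list 2 (its first 20%) and 24.2% of those that closed it (its last 20%). The drop was unequal between lists. It went from 77.1% to 5.53% in Sp7 list 1 and from 97.6% to 74.0% in Sp7 list 2. In Dlx5 lists 1 and 2 it went from 97.2% to 56.7% and from 93.5% to 27.8%. A row percentile of 0 is the first row and 100 the last. The 108 peaks of Sp7mut list 1 had a median row percentile of 63.5 (quartiles 42.5 and 82.7), against 31.4 for the mutant-shared regions. In Sp7mut list 2 the median was 52.7 (quartiles 34.1 and 70.9), against 20.6. The earliest of them stood at percentiles 1.99 and 1.71, so the mutant lists held a few of these regions near their start. These peaks lay on the Sp7 peaks: the median distance between Sp7 and Sp7mut midpoints took values of 21 to 35 bp in the 4 list pairs, and 22 to 25.5 bp in mutant-shared regions.

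Of the excluded partners, Sp1 was often met by its longer list alone and primary Sp7 rarely by either. Sp1 list 1 had a peak in 19 of the mutant-lacking regions (1.89%, against 31.7% of all Sp7 regions), and Sp1 list 2, the longer one, in 466 (46.3%, against 68.7%). In the mutant-shared regions, from which Sp1 regions were left out by the same rule, Sp1 list 2 met 64.3%. Sp1 list 2 met 59.5% (288 of 484) of the mutant-lacking regions that had a peak in Sp7mut list 2, and 34.0% (178 of 523) of those without one. It met 51.9% (56 of 108) of those with a peak in Sp7mut list 1, and 30.9% (132 of 427) of those with no mutant peak. Sp7mut and Sp1 peaks were called against the same input, and its part in this was not tested. Primary Sp7 peaks were rare, in 18 regions for list 1 (1.79%, against 18.6% of all Sp7 regions) and in 26 for list 2 (2.58%, against 21.3%), and none had a peak of both. Mutant-shared regions, under the same exclusion, had them in 4.24% and 8.63%. Because the rule left out Sp1 and primary Sp7 regions, the contrasts with all Sp7 regions were largely fixed by it. No mutant-lacking region lay over a GFP control peak, as the rule requires.

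A strict core of 278 regions (27.6%, interval 24.9 to 30.5) had no peak in any of the 6 lists of Sp7mut, Sp1 and primary Sp7, against 6.95% of all Sp7 regions. The share was much the same, 30.0% (71 of 237, interval 24.2 to 36.2), in the Sp7 regions that met no other factor. It is therefore not particular to the mutant-lacking regions. Sp7 regions outside both classes met an Sp7mut, Sp1 or primary Sp7 region, and so had a peak in these lists by definition. That fixes the lower share over all Sp7 regions. The 278 are the mutant-lacking regions where the absence holds list by list. In the order of their mean row percentile over the 2 Sp7 and 2 Dlx5 lists, the first was chr15:23511718-23511864 (mm9), a region of 147 bp. Its peaks stood at rows 1336 and 414 of the Sp7 lists and at rows 193 and 143 of the Dlx5 lists. It was followed by chr4:87048955-87049114, at rows 2466 and 528 for Sp7 and 1205 and 987 for Dlx5. The next were chr4:64361021-64361308, chr19:9174810-9174958 and chr5:152173803-152173896, whose mean row percentiles were 7.2, 7.26 and 8.81. These 5 were picked after their values were seen.

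Sp7 peaks of the mutant-lacking regions stood later in the Sp7 lists than those of mutant-shared regions. In Sp7 list 1 the median row percentile was 30.3 (quartiles 16.7 and 50.2) against 15.1 (7.18 and 30.0). In Sp7 list 2, the short list, it was 62.0 (42.8 and 80.5) against 38.6 (19.4 and 62.8). The quartile ranges of the classes overlapped in both lists. Only 13 of the 1007 regions (1.29%) stood in the first 10% of Sp7 list 2, against 171 of the 1344 mutant-shared regions (12.7%). The 427 regions without any mutant peak stood later again, at medians of 37.7 and 65.4.

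Dlx5 peaks of the same regions were also later in both lists. The median row percentile was 19.97 against 9.87 in Dlx5 list 1 and 18.6 against 9.89 in Dlx5 list 2. In the first 20% of the Dlx5 lists stood 505 and 526 of the 1007 regions (50.1% and 52.2%), against 70.7% and 73.1% of mutant-shared regions. In the first 20% of the Sp7 lists stood 308 (30.6%) and 49 (4.87%), against 60.2% and 26.1%. The lists differ in length, so nothing is read from percentiles of 1 factor beside those of the other. In row numbers the median was 5639 and 3762 in the Sp7 lists and 6037 and 7413 in the Dlx5 lists, against 2808, 2342, 2986 and 3932 for mutant-shared regions. Taking the mean row percentile over the 4 lists, 2 of the first 100 and 67 of the first 500 regions of both classes together were mutant-lacking, where they made up 42.8% of the 2351.

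**Figure D2:**
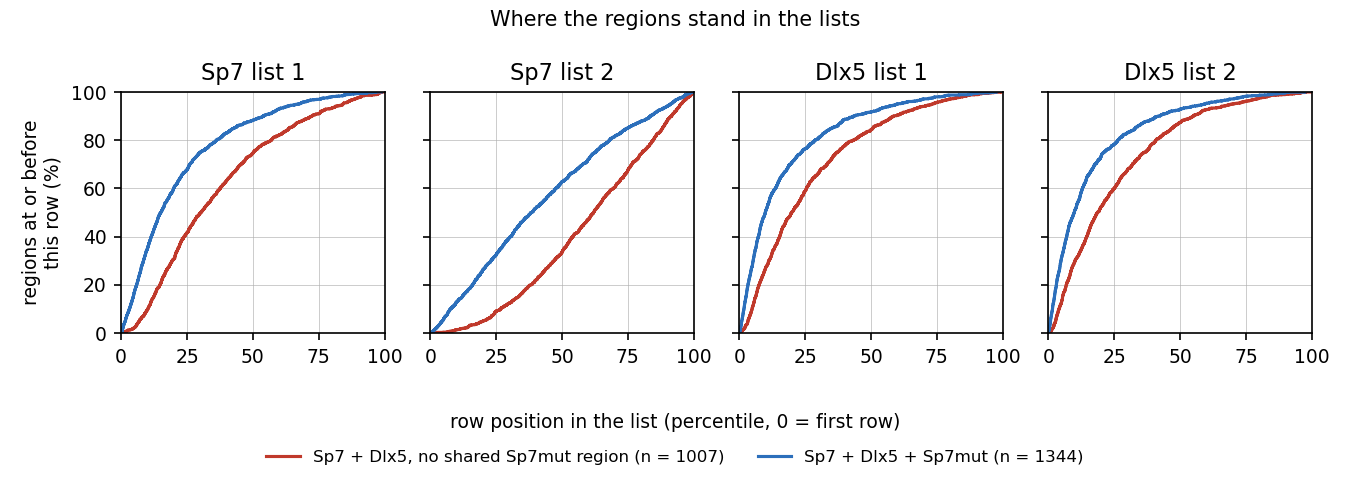
Cumulative percentage of regions (vertical axis) up to each row percentile (horizontal axis, 0 is the first row) in the 2 Sp7 and 2 Dlx5 lists, for mutant-lacking and mutant-shared regions. The mutant-lacking curve lies to the right in each of the 4 lists, with medians of 30.3, 62.0, 19.97 and 18.6 against 15.1, 38.6, 9.87 and 9.89.

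The share of mutant-lacking regions was higher at later Sp7 rows. All 5018 Sp7 regions were divided into 5 parts of 20% each by the mean of their 2 Sp7 row percentiles. In the earliest part, 33 of 318 regions of the compared classes were mutant-lacking (10.4%, interval 7.25 to 14.3). The share was 26.7%, 43.1% and 52.9% in the following parts and 64.9% (interval 60.7 to 69.0) in the last. Mutant-lacking regions also changed within themselves. Those without a peak in either mutant list went from 27.3% (9 of 33) in the earliest part to 53.1% (180 of 339) in the last, and those with a peak of Sp7mut list 1 from 33.3% to 7.37%. Peaks of Sp7mut list 2 stayed between 39.8% and 53.1% throughout. Within these parts, the Dlx5 rows of the mutant-lacking regions were later in 4 of 5, with median percentiles of 5.65, 10.7, 18.5 and 22.0 against 2.67, 7.86, 13.3 and 19.3, and 27.5 against 28.6 in the last. Row position therefore moved with the lack of a mutant region, and its part in that lack was not tested.

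**Figure D3:**
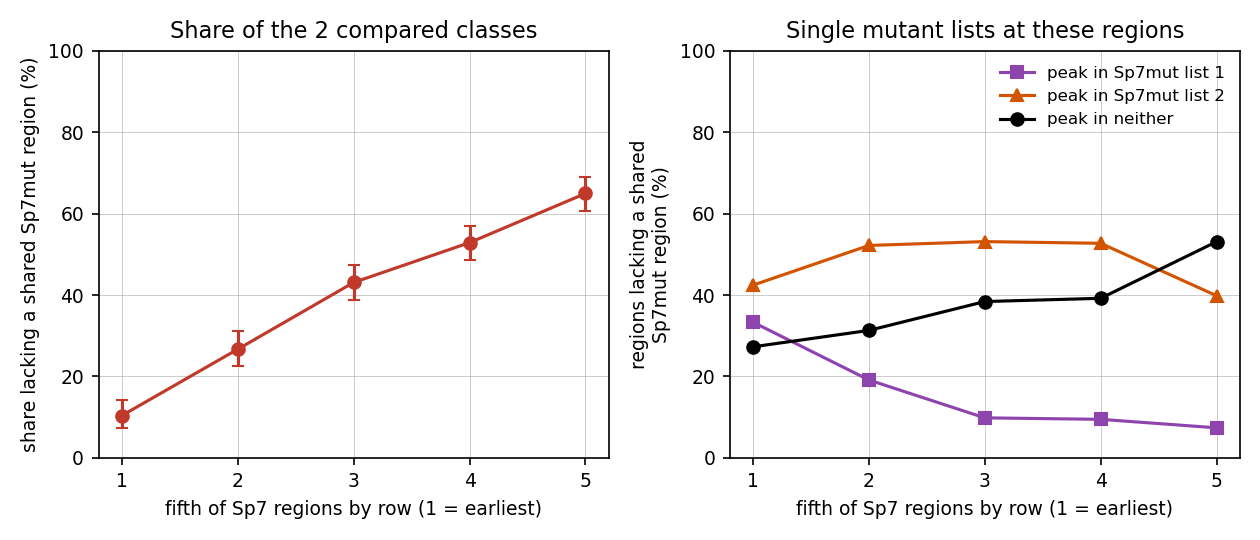
Left, percentage of mutant-lacking regions among mutant-lacking and mutant-shared regions (vertical axis) in 5 parts of the Sp7 regions from the earliest to the latest rows, with 95% Clopper-Pearson intervals, going from 10.4% to 64.9%. Right, percentage of the mutant-lacking regions of each part with a peak of Sp7mut list 1, of Sp7mut list 2 or of neither, where neither goes from 27.3% to 53.1%.

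Sp7 and Dlx5 peaks of the mutant-lacking regions covered much the same ground. A Dlx5 region covered a median of 85.5% of the Sp7 region (quartiles 65.8 and 98.1) and held 228 of the 1007 (22.6%) whole, against a median of 89.3% and 26.6% held whole in the mutant-shared class. The median distance between Sp7 and Dlx5 midpoints was 32.0, 33.0, 33.5 and 34.8 bp in the 4 pairs of lists, while the replicates of Sp7 lay 32.5 bp apart in the same regions. Distances were taken over overlapping peaks only, and the rule required both overlaps, so short distances follow in part from the choice of regions. In mutant-shared regions the 4 values were lower, 24.0 to 27.0 bp, with 26.5 bp between Sp7 replicates. Between regions of like row position the gap had no steady direction. In each of the 5 parts of the Sp7 regions the ranges over the 4 pairs overlapped, from 10.8 to 23.5 bp against 12.0 to 14.0 in the earliest to 38.0 to 41.3 bp against 37.5 to 47.5 in the last. With mutant-shared regions weighted to the row positions of the mutant-lacking ones, the mean difference turned from 7.56 bp to -1.31 bp.

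**Figure D4:**
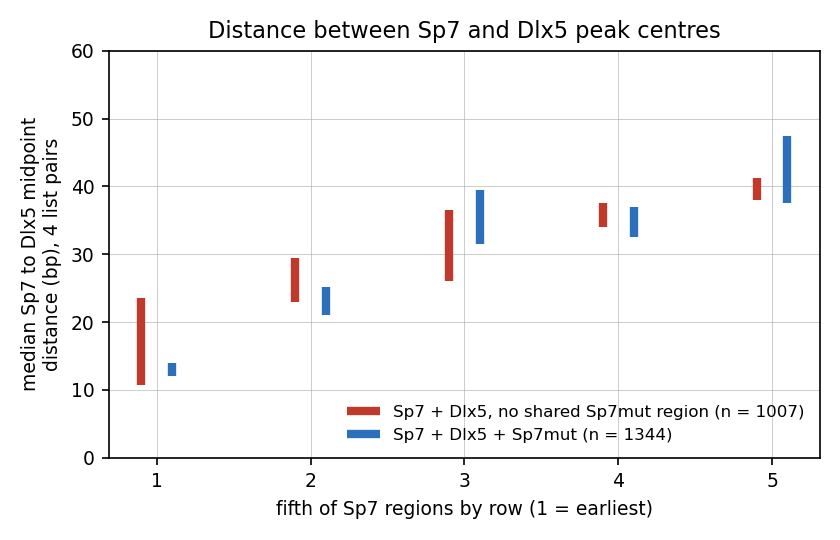
Median distance between overlapping Sp7 and Dlx5 peak midpoints in bp (vertical axis) in 5 parts of the Sp7 regions by row (horizontal axis), with bars from the lowest to the highest of the 4 pairs of lists. Bars of the mutant-lacking and mutant-shared classes overlap in all 5 parts and lie higher at later rows, up to 38.0 to 41.3 bp and 37.5 to 47.5 bp in the last.

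Region widths hardly set the classes apart. Mutant-lacking regions had a median width of 219 bp (quartiles 174 and 283, range 76 to 962), mutant-shared regions 202 bp (166 and 275) and all Sp7 regions 210 bp (166 and 286). The 427 without any mutant peak had a median of 216 bp. The widest mutant-lacking region, chr7:19886092-19887053, spanned 962 bp at Sp7 rows 5874 and 3841 and had no mutant peak. The next were chr15:10558107-10558985 (879 bp), chr6:17121485-17122297 (813 bp), chr11:101506196-101506952 (757 bp) and chr6:135313818-135314572 (755 bp). Of these 5, only the region on chromosome 11 had a mutant peak, at row 8256 of list 1, and 4 had a peak of Sp1 list 2. None of the 5 was among the leading regions by row, and their mean row percentiles lay between 30.0 and 55.9.

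The leading mutant-lacking regions, ranked by mean row percentile over the Sp7 and Dlx5 lists, were mixed in what else met them. Of the first 10, 3 had a peak of Sp7mut list 1, 4 of Sp7mut list 2 and 4 of neither. The first was chr11:3038405-3039030, 626 bp wide, at rows 241 and 71 for Sp7 and 657 and 473 for Dlx5. It had no mutant peak but a peak of Sp1 list 2. The second, chr17:39984498-39984579, stood at rows 136 and 384 for Sp7 and 58 and 18 for Dlx5, and the sixth, chr2:22600335-22600450, at rows 502 and 742 and 400 and 1016. Neither had a mutant peak, but both lay over a peak of the wild-type FLAG control in primary osteoblasts, and both had a primary Sp7 peak near the start of its list, at rows 41 and 76. That control was applied by the rule to primary regions only. Over all 1007, 3 regions (0.298%) lay over a wild-type control peak, near the 0.259% (13 of 5018) of all Sp7 regions. The third was chr4:41702970-41703142, which had a peak of Sp7mut list 2. The cell line control, GFP, had no peak at these sites, which the rule fixed in advance.

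The other leading regions included sites with a peak of 1 or of both mutant lists. The fifth, chr10:66686807-66686952, had peaks of both mutant lists in separate merged regions, at row 1398 of list 1 and 971 of list 2, beside Sp7 rows of 608 and 786. It also had a peak of Sp1 list 2 (row 11002) and of primary Sp7 list 2 (row 2497). The seventh, chr16:93553154-93553590, stood at row 459 of Sp7mut list 2, earlier than its Sp7 rows of 1150 and 564, and had no peak of list 1. It had a peak of Sp1 list 2 too, at row 6860. At chr1:40169405-40169554, the eighth, Sp7mut list 1 had a peak at row 2378, and at chr4:137300960-137301083, the tenth, at row 2084. The tenth also had a peak of primary Sp7 list 1, at row 2107. At chr4:56400147-56400321, the third, and chr17:75650393-75650563, the ninth, the mutant peak was in Sp7mut list 2. Those peaks stood at rows 11276 and 4937 of 14830. The fourth was chr15:23511718-23511864, the leading region of the strict core. Of the first 5 regions without any mutant peak, 2 were those over wild-type control peaks.

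Few regions lay close to the edge of the 1 bp overlap rule. The closest mutant-lacking region, chr11:68937889-68938324, ended 33 bp from an Sp7mut region. The next 4 were chr17:56358362-56358521 at 35 bp, chr17:12987097-12987482 at 40 bp, chr4:55545605-55545932 at 49 bp and chr11:22187483-22187839 at 64 bp, and 4 of the 5 had a peak of a single mutant list. On the other side, the mutant-shared regions with the shortest overlap were chr1:129244965-129245241 with 2 bp, chr1:137644690-137644824 with 11 bp, chr2:165898505-165898724 with 16 bp, chr17:45709593-45710189 with 18 bp and chr13:108621635-108621750 with 31 bp, and 10 of the 1344 (0.744%) overlapped by at most 50 bp. Only 41 of the 1007 regions (4.07%) lay within 500 bp of an Sp7mut region, and 60 (5.96%) within 1 kb. The median distance to the nearest one was 36341 bp, and 240 regions (23.8%) had one within 10 kb.

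Within 10 kb, most mutant-lacking regions had no other beside them, and their neighbours were about as frequent as those of mutant-shared regions. Another Sp7 region lay within 10 kb of 21.4% (interval 18.9 to 24.0) of them, against 18.5% (16.5 to 20.7) of mutant-shared regions. A further Dlx5 region beside their own lay that near in 54.1% (51.0 to 57.2) and 52.8% (50.0 to 55.5), an Sp1 region in 18.97% and 18.3%, and a primary Sp7 region in 6.36% and 7.14%. The intervals overlapped for each of these neighbours. Another mutant-lacking region was near 6.85% (interval 5.37 to 8.59) of the mutant-lacking and 4.61% (3.56 to 5.88) of the mutant-shared regions. With gaps of at most 10 kb, 938 of the 1007 stood alone and 69 formed 33 groups, nearly all pairs. With gaps of up to 100 kb, 284 regions formed 130 groups. The largest group at 10 kb held 4 regions within 8781 bp, chr15:77189140-77197920, and each of the 4 had a peak of a mutant list. The next held 3 within 10972 bp, chr6:146847750-146858721, and 2 of the 3 had no mutant peak. These groups were picked after their values were seen.

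By chromosome, the share of mutant-lacking regions among both classes lay near the overall 42.8% (interval 40.8 to 44.9). It ran from 33.0% on chromosome 8 (34 of its 103 regions, interval 24.1 to 43.0) to 59.8% on chromosome 3 (49 of 82, interval 48.3 to 70.4) among the autosomes. Chromosome 3 was the only chromosome of the 20 whose 95% interval did not hold the overall share. Chromosome X had 3 mutant-lacking and 8 mutant-shared regions, and chromosome Y none. By number, chromosome 6 held the most mutant-lacking regions (101), followed by chromosomes 2 (88), 17 (86) and 10 (85). Of all Sp7 regions on these chromosomes they were 19.8% (of 510), 19.2% (of 459), 22.3% (of 385) and 23.9% (of 355), beside 20.1% overall.

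**Figure D5:**
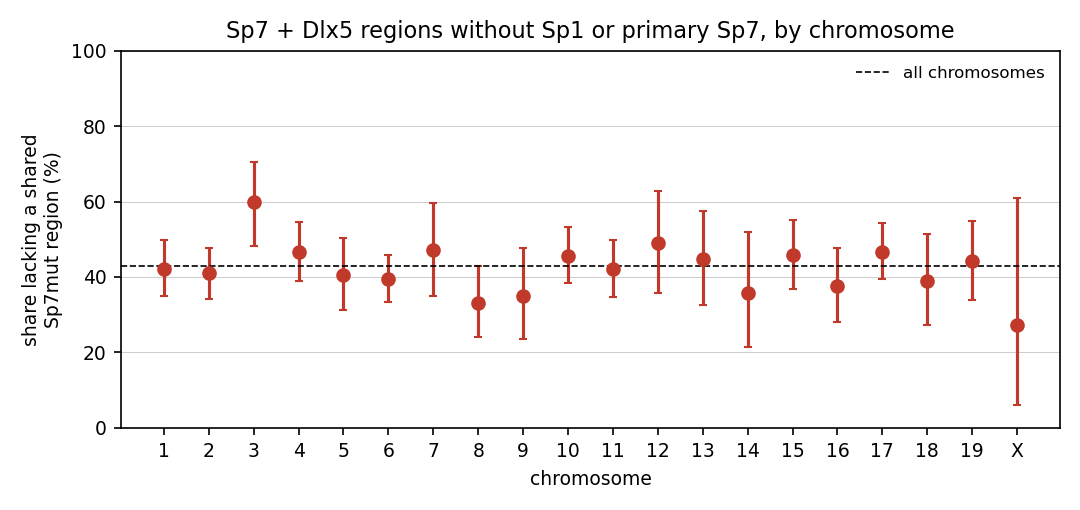
Percentage of mutant-lacking regions among mutant-lacking and mutant-shared regions on each chromosome (vertical axis), with 95% Clopper-Pearson intervals, and the share over all chromosomes, 42.8%, as a dashed line. Values run from 33.0% on chromosome 8 to 59.8% on chromosome 3 among the autosomes, and only the interval of chromosome 3 lies off the line.

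The 237 Sp7 regions that met no region of another factor were the other comparison. They had a peak of Sp7mut list 1 in 9.70% and of list 2 in 37.1% (interval 31.0 to 43.6, against 44.9 to 51.2 for the mutant-lacking regions). Neither mutant list met 54.9% of them (interval 48.3 to 61.3), against 42.4% of the mutant-lacking regions. They stood later in the Sp7 lists, at median percentiles of 39.1 and 71.0. An Sp1 region lay within 10 kb of 31.6% (interval 25.8 to 38.0), against 18.97% (16.6 to 21.5) of the mutant-lacking regions, and another Sp7 region within 10 kb of 28.3% (22.6 to 34.5), against 21.4%. Single Dlx5 lists met 42.2% and 38.0% of them. Dlx5 regions without an Sp7 region, 19426 in number, had a peak of Sp7mut list 1 in 16.3% and of list 2 in 25.2%. In the mutant-lacking Sp7 regions the shares were 10.7% in list 1 and 48.1% in list 2. Unlike these, the 19426 Dlx5 regions were not chosen for a lack of Sp7mut regions. The rule thus bears on this comparison, and no order is read from it. With 2 lists per factor, and a choice made on the same lists, no test of these differences was made.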

How the data were processed

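FLAG ChIP-seq peak lists of 12 libraries were used, and the 3 input samples have no list here. The deposited lists hold 3 columns, the chromosome and the start and end of each peak, as the authors called them, and no score or read count. Coordinates are in mm9, the build that the submitters' processing notes name. For the read aligner and for the caller of peaks, with its threshold, nothing is given in the sources used here. Peaks were called per library against an input, per the labels, which do not name that of the GFP control. Starts were read as 0-based and are printed 1-based. Where a region held several peaks of a list, the earliest row was taken, and Dlx5 rows came from the Dlx5 regions it met.

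The members and lists were chosen with earlier results of these data known. Named regions are the 10 mutant-lacking regions first by mean row percentile over the Sp7 and Dlx5 lists, the 5 widest, the 5 closest to an Sp7mut region and the 5 mutant-shared regions of shortest overlap. Others are marked where they appear. Motif content, GC content, transcription starts and gene lists were planned and not analysed here, because they need sequence and annotation of mm9, so no gene or sequence is named. With them the planned sign tests over chromosomes were dropped, and no p-value is given. Distances between regions run from the edge of a region to the nearest base of the next. Class assignment was tested on simulated data with widely spaced sites, where neighbouring or barely overlapping peaks were not tried. Software was numpy 2.4.6, scipy 1.17.1, pandas 2.3.3 and matplotlib 3.10.9, under Python 3.11.15. Alternatives were another overlap rule, control peaks kept, replicates left out, stricter absence, parts of the lists and weighting by row position.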

Additional observations from a re-analysis of the deposited data

How the results depend on the processing

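The number of mutant-lacking regions, 1007, depended on how absence was judged and on the lists used. It was 427 with no peak allowed in either Sp7mut list, 278 with none in any Sp7mut, Sp1 or primary Sp7 list (chosen after seeing the data), or 10.1% and 6.56% of Sp7 regions with Dlx5 in place of 23.8%. With every list cut to its earlier or wider 50%, it was 483 of 2100 (23.0%) or 241 of 401 (60.1%). With an overlap of at least 50% of both intervals there were 687 regions (29.6%), of which 41.2% in place of 56.4% had a peak in exactly 1 mutant list. Leaving out Sp7mut replicate 1 or 2 gave 528 or 907 regions (12.5% or 21.4%). Leaving out replicate 1 or 2 of every group, so that 1 list decided each region, gave 594 or 6036 (11.8% or 48.9%). Control peaks kept, no Sp7mut region within 500 bp, or touching peaks merged (added after seeing the data) gave 1013, 966 and 1006.

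The later Sp7 rows of mutant-lacking regions (19.3 percentile points, mean of 2 lists) became 21.5 or 26.8 without a replicate of every group and 1.52 with mutant-shared regions weighted by row position, as that weighting fixes. The Dlx5 difference (9.43 points) was 9.13 or 18.96 without a replicate, 10.8 with strict absence and 3.64 when weighted. The midpoint difference (7.56 bp) was 5.0 or 2.0 bp without a replicate, 6.19 with strict absence, 4.5 with no peak in any other list, and turned to -1.31 when weighted. Another region of either class lay within 10 kb in 12.9%, in 5.39% with 50% overlap, 9.43% or 26.9% without a replicate, 9.60% with strict absence and 9.71% with no peak in any other list. For all moves other than those fixed by construction, the cause was not tested. Weighting by row position was not run for that share, and single-list mutant peaks have no value where absence is strict or 1 list is left. No paired analysis was possible because the results come from overlaps of lists and no test. The depth of the libraries is unknown, so a lack of a peak cannot be told apart from a peak below the authors' threshold.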
